A study of Mus musculus with 12 samples.

Results

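The genes described here are 9 genes used to tell the layers of the mouse neocortex apart, Cux1, Cux2, Lamp5 and Rorb for the upper layers (2 to 4) and Etv1, Bcl11b, Fezf2, Tbr1 and Foxp2 for the deep layers (5 and 6). They were taken by gene symbol out of the 23183 genes listed for every library, and all 9 were found in all 12 libraries. The libraries are bulk RNA sequencing of prefrontal cortex (PFC) and hippocampus (Hippo) from 3 male C57BL/6 mice whose abdomen was irradiated with X-rays (13Gy in the library names) and from 3 male C57BL/6 mice that were not irradiated (con). Each mouse gave both regions, so the 4 groups of 3 libraries come from 6 mice: irradiated prefrontal cortex (PFC 13Gy), control prefrontal cortex (PFC con), irradiated hippocampus (Hippo 13Gy) and control hippocampus (Hippo con). The tissue was taken in the chronic phase after exposure as a model of lasting gut injury. The age of the mice, the interval since irradiation and any sham handling of the controls are not stated in the labels.

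The neocortex is built of layers whose excitatory neurons have different targets. Upper-layer neurons mostly connect cortical areas with each other, layer 4 receives much of the thalamic input, layer 5 holds the neurons that project to brainstem and spinal cord, and layer 6 holds those that project back to the thalamus. The hippocampus is older cortex with a simpler layering, and its pyramidal, granule and subicular neurons use several of the same transcription factors.

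Among the upper-layer genes, Cux1 (chr5:136248135-136567490, minus strand) and Cux2 (chr5:121856366-122050102, minus strand) encode homeodomain transcription factors that shape the dendrites and synapses of upper-layer neurons. Rorb (chr19:18930605-19111196, minus strand) encodes a nuclear receptor typical of layer 4, and Lamp5 (chr2:136052239-136069917, plus strand) a membrane protein of the lysosome-associated family found in upper-layer neurons and in a class of interneurons. Among the deep-layer genes, Etv1 (chr12:38779380-38870484, plus strand) encodes an ETS transcription factor of layer 5. Bcl11b (chr12:107910403-108003602, minus strand), also called Ctip2, and Fezf2 (chr14:12342094-12348189, minus strand) encode zinc-finger transcription factors that specify the subcortical projection neurons of layer 5, and Bcl11b is also strong in striatal and hippocampal neurons. Tbr1 (chr2:61802930-61814114, plus strand) encodes a T-box transcription factor of layer 6 and of young excitatory neurons, and Foxp2 (chr6:14901349-15441977, plus strand) a forkhead transcription factor of layer 6 that also marks striatal and thalamic neurons. These positions are those of mouse build mm10 (GENCODE M21). Of the 9 genes only Cux1 shares exon bases with another annotated gene, the antisense gene Gm16599 on the opposite strand, over 394 bases or 1.97% of its exon length.

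The stretches of 250 bases before the RefSeq transcription starts (build GRCm38.p6) are shown for genes on both sides of the comparison of regions, Tbr1 and Rorb, which were higher in prefrontal cortex, and Etv1, which was lower. A second start of Cux2, 2590 bases downstream of where the RefSeq gene begins, is shown because it held the letters of the site bound by CUX factors. Of the 9 genes, 8 had an entry, and 7 motifs were searched on both strands: the TATA box TATAAA, the box CCAAT, the homeodomain core TAATTA, the CUX site ATCGAT, the T-box core GGTGTGA, the nuclear receptor core AGGTCA and the E-box CAGCTG. Capitals mark the matches, and each sequence is written 5′ to 3′ on the strand of its gene.
Tbr1: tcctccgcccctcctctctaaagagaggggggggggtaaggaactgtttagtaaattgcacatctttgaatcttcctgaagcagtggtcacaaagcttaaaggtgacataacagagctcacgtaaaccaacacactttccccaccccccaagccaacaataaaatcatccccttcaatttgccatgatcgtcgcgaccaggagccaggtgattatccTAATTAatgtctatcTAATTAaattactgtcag
Rorb: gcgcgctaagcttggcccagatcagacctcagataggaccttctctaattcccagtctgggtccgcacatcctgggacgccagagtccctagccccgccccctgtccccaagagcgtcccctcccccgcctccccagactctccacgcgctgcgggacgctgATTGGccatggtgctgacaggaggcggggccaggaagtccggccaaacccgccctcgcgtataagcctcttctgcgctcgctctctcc
Etv1: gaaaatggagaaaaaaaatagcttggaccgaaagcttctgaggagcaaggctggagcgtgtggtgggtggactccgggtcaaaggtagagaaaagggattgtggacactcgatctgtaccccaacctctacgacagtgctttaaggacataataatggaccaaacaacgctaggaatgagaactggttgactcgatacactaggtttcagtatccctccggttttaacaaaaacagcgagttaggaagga
Cux2: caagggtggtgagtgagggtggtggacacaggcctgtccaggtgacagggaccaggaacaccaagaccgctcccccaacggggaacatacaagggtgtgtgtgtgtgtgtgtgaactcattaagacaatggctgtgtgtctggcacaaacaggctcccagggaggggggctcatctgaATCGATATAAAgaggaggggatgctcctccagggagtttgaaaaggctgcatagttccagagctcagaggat

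The Tbr1 stretch (chr2:61804203-61804452, plus strand, inside the annotated gene) held TAATTA at 2 places, a motif found in 4.84% of all 32851 promoters of this length. The Rorb stretch (chr19:19111197-19111446, minus strand) held the reverse complement of CCAAT, a motif that 33.8% of all promoters hold on either strand, and it was the richest of the 4 in CpG, with 18 against a median of 6 over all promoters. The Etv1 stretch (chr12:38779832-38780081, plus strand, inside the annotated gene) held none of the 7 motifs. The downstream Cux2 stretch (chr5:122047826-122048075, minus strand) held the CUX site, found in 0.728% of all promoters, which shared 1 base with a TATA box, found in 12.4%. This downstream start is not among the 8 promoters nearest to the genes' starts, and in none of those 8 did the TATA box or the CUX site match. The T-box core, the nuclear receptor core and the E-box, found in 3.33%, 14% and 13% of all promoters, also matched in none of these 8.

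Values are the authors' and were taken as FPKM from their scale, since the files do not name the unit: fragments scaled to transcript length and library size, which can be compared between genes. The deposited values summed to 381417 to 435534 FPKM per library and 12640 to 12967 genes reached 1 FPKM. The number of reads is unknown, but the commonest ratio of low values between libraries put their relative depths between 0.875 and 1.06. Differences below are on the log2(FPKM + 1) scale, which understates the change of genes near 1 FPKM, and are given with their standard error from limma, fitted to all genes whose mean over the compared libraries reached 1 FPKM. A gene passed where its Benjamini-Hochberg adjusted p over all those genes was below 0.05. All 12 libraries carry the same batch label. In hippocampus, the summed level of 12 choroid plexus genes ran from 150 to 5461 FPKM in irradiated mice and from 4346 to 6747 FPKM in control mice. Irradiated mouse 2 stood apart there, with its transthyretin gene Ttr at 52.1 FPKM where the highest irradiated library reached 4453 FPKM.

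**Figure D1:**
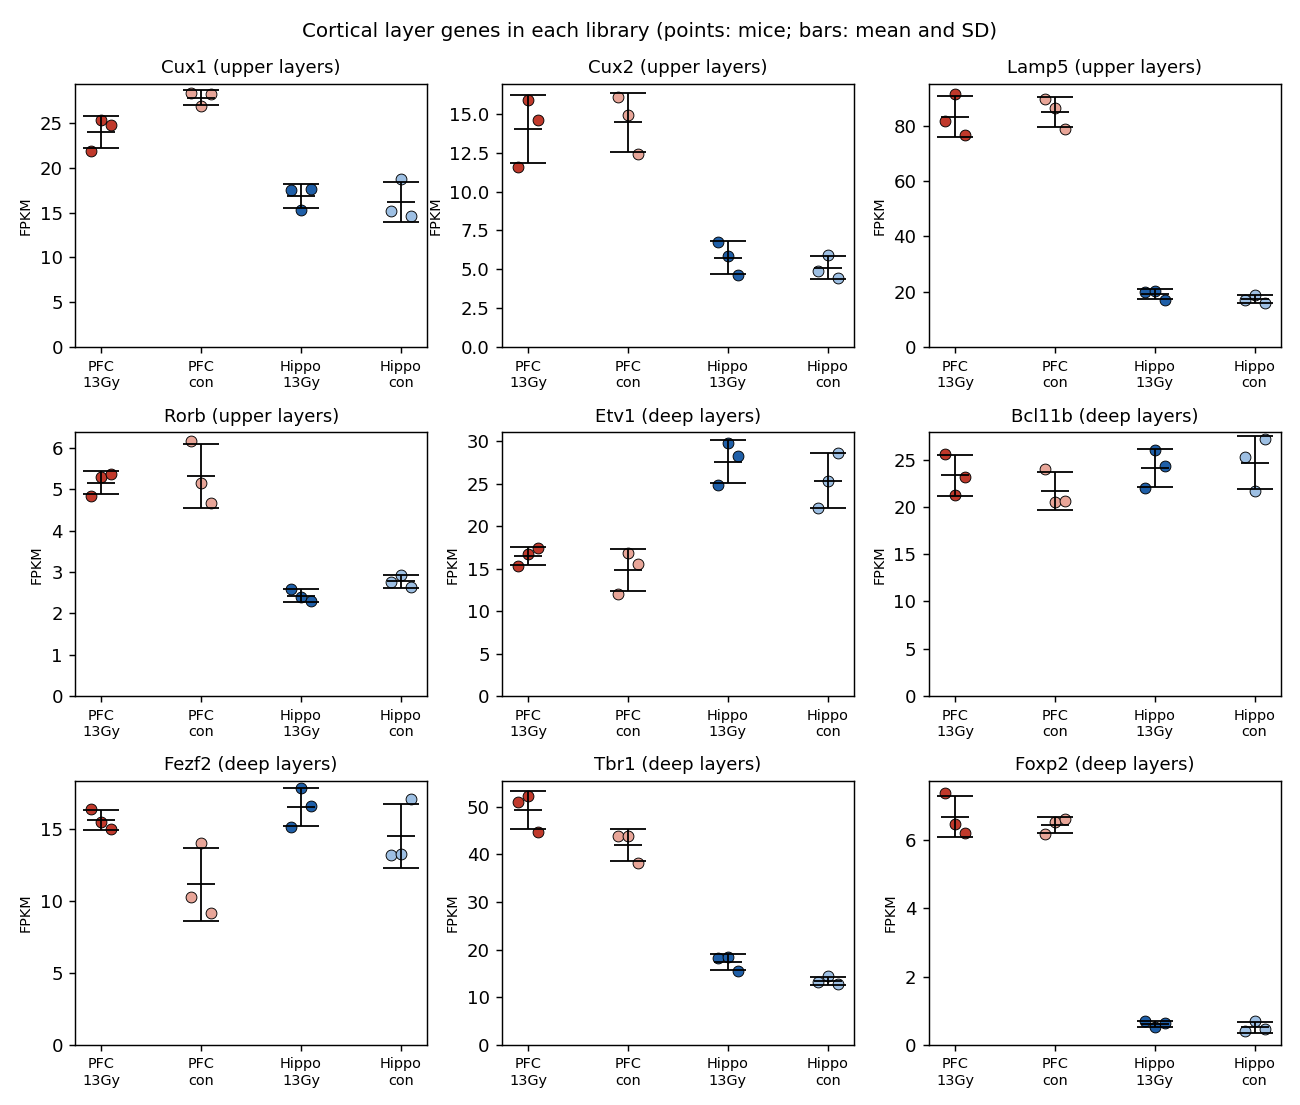
Levels of the 9 cortical layer genes (vertical axis, FPKM, each panel with its own scale from 0) in the 4 groups, with 1 point per mouse and bars at the mean and SD of 3 mice. Lamp5, Tbr1, Foxp2, Cux1, Cux2 and Rorb lay higher in every prefrontal library than in any hippocampal library, Etv1 lay lower, and Bcl11b and Fezf2 overlapped between regions.

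Prefrontal cortex was set against hippocampus first, which shows how these genes differ between the samples of the regions as dissected. In both irradiated and control mice 6 of the 9 genes were higher in prefrontal cortex, all 4 upper-layer genes and the layer 6 genes Tbr1 and Foxp2. Etv1 of layer 5 was lower in both, and the other layer 5 genes, Bcl11b and Fezf2, did not pass. Of all genes tested, 15.3% were higher and 13.9% lower in prefrontal cortex of irradiated mice, and 14.6% and 15.7% in control mice. The median differences of all genes were 0.00 in irradiated and -0.01 in control mice. The 6 genes called higher also had libraries that did not overlap between regions, which held for 23.4% of all genes in irradiated and 22% in control mice, and Etv1 was below without overlap, as were 21.4% and 23.7% of all genes. In bulk tissue, more cells of a type and more RNA per cell cannot be told apart.

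Lamp5 was the most abundant of the 9 genes in prefrontal cortex, at 81.7, 91.4 and 76.7 FPKM in irradiated mice 1, 2 and 3, against 20.0, 20.3 and 17.1 FPKM in their hippocampus. In control mice 1, 2 and 3 it stood at 89.7, 86.3 and 78.9 FPKM in prefrontal cortex and 17.2, 18.9 and 16.1 FPKM in hippocampus. Each mouse had far more Lamp5 in prefrontal cortex, and the lowest prefrontal library was well above the highest hippocampal one. The differences were 2.07 ± 0.09 in irradiated mice (limma adjusted p = 4.39e-06) and 2.22 ± 0.08 in control mice (adjusted p = 2.56e-07), and the ratios of the group means 4.35 and 4.88.

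Cux2 followed at a lower level, with 11.6, 15.9 and 14.6 FPKM in prefrontal cortex of irradiated mice and 6.76, 5.83 and 4.64 FPKM in their hippocampus. In control mice it had 16.1, 14.9 and 12.4 FPKM in prefrontal cortex and 4.92, 5.90 and 4.46 FPKM in hippocampus. Its regions were clearly apart, although Cux2 varied more between mice of a group, relative to its mean, than Lamp5 did. It was higher in prefrontal cortex by 1.16 ± 0.14 in irradiated mice (limma adjusted p = 0.000711) and by 1.34 ± 0.12 in control mice (adjusted p = 3.38e-05).

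Cux1, the relative of Cux2, had the narrowest gap of the upper-layer genes in irradiated mice, where prefrontal cortex held 21.9, 25.3 and 24.8 FPKM and hippocampus 17.5, 15.3 and 17.7 FPKM. Control mice held 28.4, 26.9 and 28.3 FPKM in prefrontal cortex and 15.1, 18.8 and 14.7 FPKM in hippocampus. The groups did not overlap between regions in either treatment. The differences were 0.49 ± 0.08 (limma adjusted p = 0.00290) in irradiated and 0.75 ± 0.09 (adjusted p = 0.000278) in control mice.

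Rorb was the least abundant of the 9 in prefrontal cortex, at 4.84, 5.30 and 5.36 FPKM in irradiated mice, with 2.60, 2.39 and 2.31 FPKM in their hippocampus. Control mice had 6.18, 5.15 and 4.66 FPKM in prefrontal cortex and 2.76, 2.93 and 2.63 FPKM in hippocampus. Despite the low level, prefrontal cortex was higher in every mouse. The differences were 0.85 ± 0.08 (limma adjusted p = 0.000196) in irradiated and 0.74 ± 0.11 (adjusted p = 0.000658) in control mice.

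The deep-layer genes did not move as a group between the regions. Tbr1 stood at 51.0, 52.2 and 44.7 FPKM in prefrontal cortex of irradiated mice 1, 2 and 3 and had 18.2, 18.5 and 15.4 FPKM in their hippocampus. Control mice had 43.8, 43.9 and 38.2 FPKM in prefrontal cortex and 13.1, 14.4 and 12.7 FPKM in hippocampus. Each mouse had more Tbr1 in prefrontal cortex, and no hippocampal library reached the lowest prefrontal one. The differences were 1.45 ± 0.09 (limma adjusted p = 2.10e-05) in irradiated and 1.57 ± 0.08 (adjusted p = 1.46e-06) in control mice.

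Foxp2 had the widest ratio between regions, with 7.38, 6.47 and 6.22 FPKM in prefrontal cortex and 0.688, 0.526 and 0.625 FPKM in hippocampus of irradiated mice. In control mice it had 6.19, 6.52 and 6.62 FPKM in prefrontal cortex and 0.393, 0.694 and 0.452 FPKM in hippocampus. It was the only one of the 9 genes under 1 FPKM in any library, and it was so in all 6 hippocampal libraries. The ratios of group means were 10.9 in irradiated and 12.6 in control mice, while the log2(FPKM + 1) differences were 2.25 ± 0.10 and 2.30 ± 0.10 (limma adjusted p = 4.19e-06 and 8.42e-07).

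Etv1 ran the other way. Irradiated mice had 15.4, 16.7 and 17.4 FPKM in prefrontal cortex and 24.8, 29.8 and 28.2 FPKM in hippocampus, and control mice 12.1, 16.8 and 15.5 FPKM in prefrontal cortex and 22.2, 25.4 and 28.6 FPKM in hippocampus. Every hippocampal library was above every prefrontal one, and in hippocampus Etv1 had the highest mean of the 9 genes. It was lower in prefrontal cortex, with differences of -0.71 ± 0.08 (limma adjusted p = 0.000516) in irradiated and -0.74 ± 0.13 (adjusted p = 0.00190) in control mice.

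Bcl11b and Fezf2 did not pass between the regions. Bcl11b had 25.6, 21.2 and 23.2 FPKM in prefrontal cortex and 22.0, 26.0 and 24.3 FPKM in hippocampus of irradiated mice, and 24.0, 20.5 and 20.6 FPKM and 25.3, 21.6 and 27.1 FPKM in the same regions of control mice. Its libraries overlapped between regions, and the 95% intervals of the difference were -0.24 to 0.15 in irradiated mice (limma adjusted p = 0.737) and -0.39 to 0.04 in control mice (adjusted p = 0.209). Fezf2 had 16.4, 15.5 and 15.0 FPKM in prefrontal cortex and 15.2, 17.8 and 16.6 FPKM in hippocampus of irradiated mice, and 10.3, 14.0 and 9.15 FPKM and 13.2, 13.3 and 17.1 FPKM in the same regions of control mice. It too overlapped between regions in both treatments. Its difference was -0.07 ± 0.07 in irradiated mice (limma adjusted p = 0.510, 95% interval -0.24 to 0.10) and -0.37 ± 0.15 in control mice (adjusted p = 0.0978, interval -0.70 to -0.03). In control mice Fezf2 passed as lower in prefrontal cortex when all 12 libraries were fitted together (-0.37, limma adjusted p = 0.0479) and without control prefrontal mouse 2 (-0.53, adjusted p = 0.0135), and its adjusted p ran up to 0.277 over all alternatives.

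**Figure D2:**
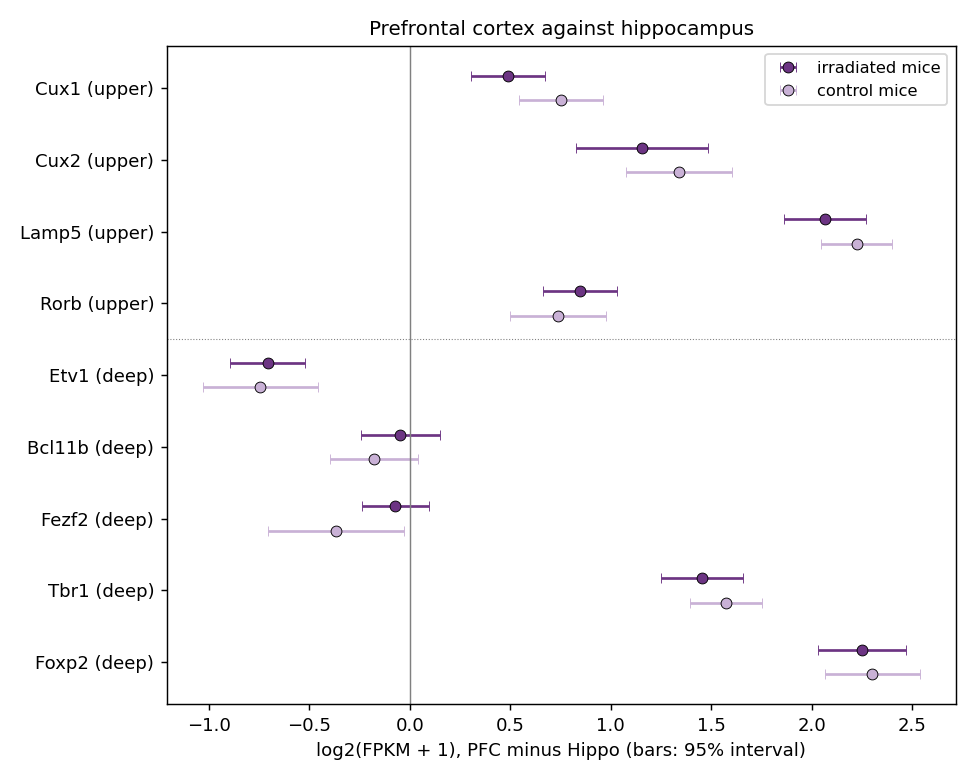
Difference of each gene between prefrontal cortex and hippocampus (horizontal axis, log2(FPKM + 1), prefrontal cortex minus hippocampus), with points at the limma estimate and bars at the 95% interval, irradiated mice above control mice. The upper-layer genes, Tbr1 and Foxp2 lie right of 0, Etv1 lies left of it, and the intervals of Bcl11b reach across 0 in both treatments.

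In order of mean level, Lamp5 and Tbr1 came before the others in prefrontal cortex of irradiated and control mice, and their ranges touched neither each other nor the next gene, Cux1. At the low end of prefrontal cortex, Foxp2 was above Rorb in all 3 mice of each group. The ranges of Cux1 and Bcl11b overlapped in irradiated but not in control mice. Further down, the ranges of Etv1, Fezf2 and Cux2 overlapped between neighbours in both treatments. In hippocampus Etv1 and Bcl11b came first and overlapped each other. Lamp5, Tbr1, Cux1 and Fezf2 followed with overlapping ranges, and Cux2, Rorb and Foxp2 stood below them without overlap.

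Other genes of the same layers were read beside these 9. Of 12 further upper-layer genes, 6 were higher and 3 lower in prefrontal cortex of irradiated mice (median difference 0.46), and 8 higher and 3 lower in control mice (median 0.77). Plxnd1, a semaphorin receptor, differed by 1.66 ± 0.11 in control mice and Mdga1, an adhesion protein of superficial layers, by -1.38 ± 0.09 (limma adjusted p = 5.90e-06 and 4.16e-06). Of 18 further deep-layer genes, 10 were higher and 6 lower both in irradiated mice (median 0.31) and in control mice (median 0.35). Syt6, a synaptotagmin of layer 6 neurons, was higher by 2.00 ± 0.11 in control mice, while Crym, a thyroid hormone-binding protein, had a difference of -1.08 ± 0.07 (limma adjusted p = 1.94e-06 and 5.93e-06). Both longer lists thus held both directions, while among the 9 genes only the deep-layer genes did.

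Markers of neighbouring tissue moved with the regions. All 17 striatal projection neuron genes tested were higher in prefrontal cortex of irradiated mice and all 18 in control mice. Their summed level was 1117 to 1168 FPKM in irradiated and 1072 to 1377 FPKM in control prefrontal cortex, against 172 to 218 FPKM and 207 to 229 FPKM in hippocampus of the same treatments. The dopamine receptor gene Drd1, a defining marker of such neurons, averaged 21.6 ± 0.769 and 21.4 ± 4.78 FPKM (SD, n = 3 mice each) in irradiated and control prefrontal cortex. Foxp2 and Bcl11b are also used by striatal neurons, and the part of striatal tissue in their levels was not tested. Of 17 genes of the hippocampal subfields, 15 were lower in prefrontal cortex in each treatment. In irradiated mice, 3 of 10 forebrain excitatory genes were higher in prefrontal cortex and 5 lower, 5 of 14 interneuron genes higher and 4 lower, and 0 of 16 glial and vessel genes higher and 8 lower. In control mice these counts were 3 and 3, 5 and 2, and 4 and 7. Of 12 choroid plexus genes, 10 were lower in prefrontal cortex of irradiated and 12 of control mice. Of 4 thalamic genes tested 2 were lower in each treatment, and of 4 olfactory genes tested 1 was higher and 1 lower in irradiated mice and 2 were higher in control mice.

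The genes whose profile over the 12 libraries was most like that of each member were found among 8851 genes that averaged 5 FPKM or more, by the root mean square difference of log2(FPKM + 1) after each profile was centred on its mean. This measure follows the region difference for most members. Nearest to Lamp5 were Cpne5 (0.0820) and Ngef (0.0864), and nearest to Foxp2 were Pdyn, which encodes prodynorphin (0.0852), and again Cpne5 (0.102). Olfm2 (0.115) was among the nearest 2 to Tbr1. Nearest to Cux2 were Igsf21 (0.108) and Cdh22 (0.132), to Cux1 Hsf4 (0.0936) and Cxx1c (0.0954), and to Rorb Phactr1 (0.0609) and Sept5 (0.0685). Etv1 lay nearest to Nebl (0.0885) and Unc5c (0.0913), a netrin receptor, Bcl11b to Ube2a (0.0691) and Lmo3 (0.0754), and Fezf2 to Cers6 (0.126) and Gramd1b (0.145). Among the members themselves the closest pair crossed the layers, Lamp5 with Foxp2 at 0.136, followed by Cux1 with Rorb at 0.162, Cux2 with Tbr1 at 0.220 and Bcl11b with Fezf2 at 0.226. The added 1 narrows the profile of Foxp2, which was under 1 FPKM in hippocampus. In irradiated and control mice its ratios of group means between regions were 10.9 and 12.6, against 4.35 and 4.88 for Lamp5. The closeness of Foxp2 to Lamp5, Pdyn and Cpne5 lies in log2(FPKM + 1) and not in the ratio between regions.

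Irradiated mice were then set against control mice within each region. In prefrontal cortex none of the 9 genes passed, and neither did any of the 8 that reached 1 FPKM in hippocampus (limma, Benjamini-Hochberg). Across all genes, 0.00786% passed in prefrontal cortex, which is the single small nucleolar RNA gene Snora81, named after its value was seen, and 0% in hippocampus. At an unadjusted p under 0.05 there were 3 of the 9 genes in prefrontal cortex, against 7.23% of all genes, and 1 of 8 in hippocampus, against 10.5%. The values behind these counts follow, since none of them passed after adjustment.

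Fezf2 in prefrontal cortex had the widest gap. Its 3 irradiated mice, listed above, lay between 15.0 and 16.4 FPKM and its 3 control mice between 9.15 and 14.0 FPKM, so the groups did not overlap. The means were 15.7 ± 0.706 FPKM (13Gy) against 11.2 ± 2.56 FPKM (con) (SD, n = 3 each), a ratio of 1.40. The difference was 0.47 ± 0.13 (95% interval 0.18 to 0.77, limma adjusted p = 0.468). In hippocampus Fezf2 averaged 16.5 ± 1.33 FPKM (13Gy) against 14.5 ± 2.22 FPKM (con), and the groups overlapped (difference 0.18 ± 0.11, limma adjusted p = 0.539).

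Tbr1 lay higher in every irradiated mouse than in any control mouse in both regions. In prefrontal cortex the means were 49.3 ± 4.01 FPKM (13Gy) against 41.9 ± 3.29 FPKM (con), a difference of 0.23 ± 0.09 (95% interval 0.03 to 0.42, limma adjusted p = 0.604). In hippocampus they were 17.4 ± 1.71 FPKM (13Gy) against 13.4 ± 0.883 FPKM (con), a difference of 0.35 ± 0.08 (95% interval 0.16 to 0.54, limma adjusted p = 0.435). The hippocampal means differed by a ratio of 1.30 and the prefrontal means by 1.18. Without irradiated mouse 2, which stood apart in its choroid plexus genes, the hippocampal difference of Tbr1 was 0.30 ± 0.09 (limma adjusted p = 0.758, and 0.186 to 0.922 over all alternatives), and 7 of the 9 genes still passed between regions in irradiated mice. The regions come from the same mice, so the values of the 2 regions are not independent of each other.

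Cux1 was the third gene with groups apart in prefrontal cortex, at 24.0 ± 1.81 FPKM (13Gy) against 27.8 ± 0.824 FPKM (con), with all 3 irradiated mice below all 3 controls. The difference was -0.21 ± 0.08 (95% interval -0.38 to -0.04, limma adjusted p = 0.578). Every irradiated prefrontal library also had a smaller total than every control one, at 381417 to 406369 against 416042 to 420431 FPKM. The separation was read from values not rescaled for this. With equal totals per library the difference of Cux1 was -0.13. In hippocampus its groups overlapped, at 16.8 ± 1.33 FPKM and 16.2 ± 2.25 FPKM for irradiated and control mice. Rorb was the only other gene with groups apart, in hippocampus, where irradiated mice lay at 2.43 ± 0.150 FPKM and control mice at 2.77 ± 0.152 FPKM (difference -0.14 ± 0.08, limma adjusted p = 0.548). With equal totals this difference of Rorb was -0.075. Groups that do not overlap are common here. In prefrontal cortex 6.25% of all genes lay higher in all irradiated mice and 7.44% lower, and in hippocampus 7.41% and 8.16%.

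All other intervals reached across 0. In prefrontal cortex the differences were 0.16 ± 0.11 for Etv1, 0.10 ± 0.09 for Bcl11b, 0.04 ± 0.09 for Foxp2, -0.04 ± 0.13 for Cux2, -0.03 ± 0.09 for Lamp5 and -0.03 ± 0.10 for Rorb. In hippocampus they were 0.12 ± 0.10 for Etv1, -0.03 ± 0.09 for Bcl11b, 0.14 ± 0.13 for Cux2, 0.13 ± 0.09 for Lamp5 and 0.06 ± 0.10 for Cux1. Foxp2 was not tested in hippocampus, where its mean was below 1 FPKM. The widest 95% interval among them was that of Cux2 in each region, -0.33 to 0.24 in prefrontal cortex and -0.17 to 0.45 in hippocampus, so differences of that size could not be resolved with 3 mice a group.

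**Figure D3:**
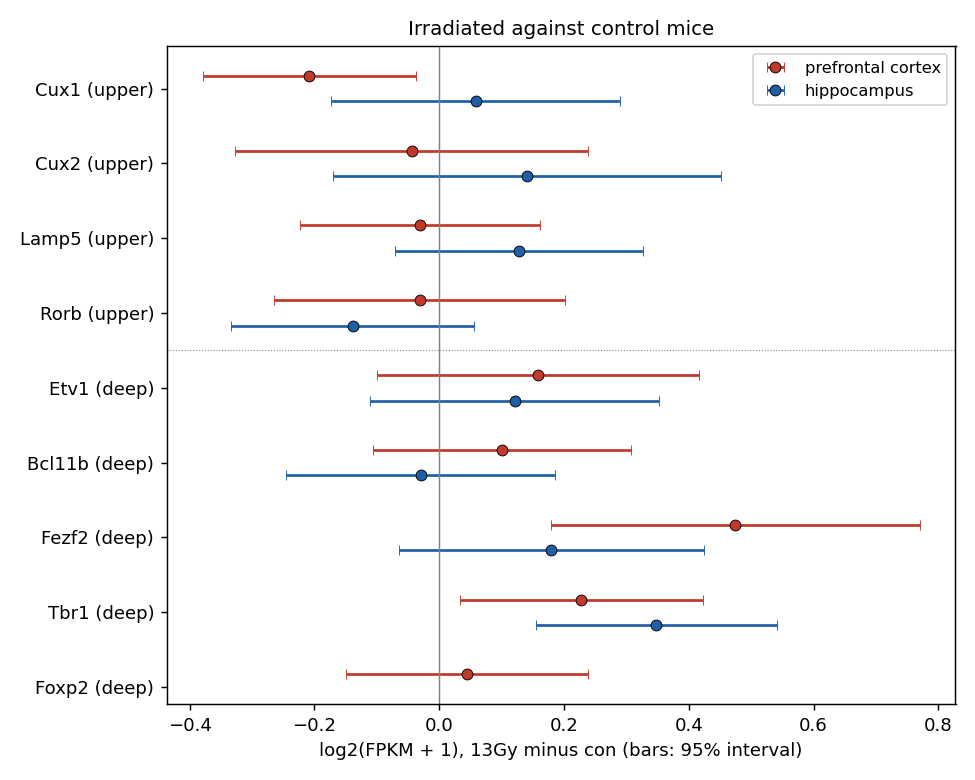
Difference of each gene between irradiated and control mice (horizontal axis, log2(FPKM + 1), 13Gy minus con), with points at the limma estimate and bars at the 95% interval, for prefrontal cortex and hippocampus. The intervals of Fezf2, Tbr1 and Cux1 in prefrontal cortex and of Tbr1 in hippocampus leave 0 out, and none of the genes passed after adjustment over all genes. Foxp2 has no hippocampal point.

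By layer, the 5 deep-layer genes all had positive differences in prefrontal cortex (median 0.16) and the 4 upper-layer genes all had negative ones (median -0.04), but Cux2, Lamp5 and Rorb turned positive, at 0.03, 0.05 and 0.03, with the values rescaled to equal totals per library. In hippocampus 3 of 4 tested deep-layer genes and 3 of 4 upper-layer genes had positive differences (medians 0.15 and 0.09). The medians of all genes tested were 0.00 in prefrontal cortex and -0.01 in hippocampus. Of the 18 further deep-layer genes, 14 had positive differences in prefrontal cortex (median 0.09) and 14 in hippocampus (median 0.16), and 0 passed in either region. At an unadjusted p under 0.05 they held 1 gene with a positive and 1 with a negative difference in prefrontal cortex, and 6 and 1 in hippocampus. Of the further upper-layer genes, 4 of 11 tested had positive differences in prefrontal cortex (median -0.05) and 6 of 10 in hippocampus (median 0.05), with 0 passing in either region. At an unadjusted p under 0.05 they held 1 gene with a negative difference in prefrontal cortex and 1 with a positive difference in hippocampus.

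Single genes of those lists showed the same spread of directions. Among deep-layer genes in prefrontal cortex, Bcl6, a transcriptional repressor, averaged 10.2 ± 0.697 FPKM (13Gy) against 8.46 ± 0.780 FPKM (con) (limma adjusted p = 0.590), and Pcp4, a calmodulin regulator, 469 ± 47.6 and 586 ± 78.0 FPKM (adjusted p = 0.590). In hippocampus Parm1, a mucin-like membrane protein, averaged 19.6 ± 1.40 FPKM (13Gy) against 15.5 ± 2.12 FPKM (con), and Crym 143 ± 19.1 and 175 ± 11.7 FPKM (limma adjusted p = 0.475 for both). Among upper-layer genes, Rspo1, a Wnt signal enhancer, averaged 4.09 ± 0.965 FPKM (13Gy) against 5.55 ± 0.837 FPKM (con) in prefrontal cortex (limma adjusted p = 0.604). Unc5d, a netrin receptor of upper-layer neurons, averaged 5.93 ± 0.110 FPKM (13Gy) against 4.71 ± 0.760 FPKM (con) in hippocampus (limma adjusted p = 0.475).

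Levels of other cell types were set beside these values. In prefrontal cortex the summed level of 16 genes of glia and vessels ran from 2172 to 2253 FPKM in irradiated and 2357 to 2566 FPKM in control mice, without overlap. The myelin gene Mbp was its largest part, at 895 ± 29.7 FPKM (13Gy) against 1065 ± 77.7 FPKM (con). The mean log2(FPKM + 1) of the 16 genes overlapped, at 5.38 to 5.49 in irradiated and 5.43 to 5.52 in control mice. Of the 16 genes, 11 had negative and 5 positive differences. The vessel genes Cldn5, Ly6c1, Pecam1 and Flt1 averaged higher in irradiated mice. The striatal projection genes, whose sums overlapped (given above), had negative differences in 15 of 18. In hippocampus the glial and vessel sum was 2869 to 3082 FPKM in irradiated and 3031 to 3547 FPKM in control mice. There 10 of the 16 genes had negative and 6 positive differences, with 4 of each at an unadjusted limma p under 0.05. The same vessel genes averaged higher in irradiated mice there too. All 12 choroid plexus genes had negative differences in hippocampus, 0 of which passed (limma, and 0 at an unadjusted p under 0.05). None of the 10 further lists held a gene that passed in either region. The part of these cell types in the values of the layer genes was not tested.

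Whether irradiation moved a gene differently in the regions was tested as the difference of the 2 effects, prefrontal cortex minus hippocampus. It passed for none of the 9 genes (limma adjusted p = 1.00 for each) and for 0% of all 12894 genes tested. At an unadjusted p under 0.05 the limma fit held none of the 9 genes and 3.27% of all genes. The estimates were 0.29 ± 0.19 for Fezf2 (95% interval -0.11 to 0.70), -0.27 ± 0.13 for Cux1 (-0.55 to 0.01) and -0.12 ± 0.12 for Tbr1 (-0.39 to 0.15).

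The balance of upper- against deep-layer genes was described per library as the mean log2(FPKM + 1) of the 4 upper-layer genes minus that of the 5 deep-layer genes. It was -0.06, 0.23 and 0.17 in prefrontal cortex of irradiated mice 1, 2 and 3 and 0.54, 0.29 and 0.35 in that of control mice. All 3 irradiated values lay below all 3 control values. The level averages the genes described above, among them Fezf2, Tbr1 and Cux1 with prefrontal groups apart, so it adds nothing separate to them. In hippocampus it was -0.30, -0.52 and -0.53 in irradiated and -0.31, -0.21 and -0.55 in control mice, and these overlapped. The group means were 0.11 ± 0.15 and 0.39 ± 0.13 in irradiated and control prefrontal cortex and -0.45 ± 0.13 and -0.35 ± 0.17 in irradiated and control hippocampus (SD, n = 3 each). Every prefrontal value was above every hippocampal one.

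The layer 5 and layer 6 genes were also averaged apart, a split chosen after the values were seen. The mean log2(FPKM + 1) of the layer 5 genes Etv1, Bcl11b and Fezf2 was 4.26 ± 0.04 and 4.02 ± 0.13 in irradiated and control prefrontal cortex, against 4.54 ± 0.12 and 4.45 ± 0.16 in hippocampus of the same treatments. For the layer 6 genes Tbr1 and Foxp2 it was 4.29 ± 0.10 and 4.16 ± 0.04 in irradiated and control prefrontal cortex, against 2.44 ± 0.07 and 2.22 ± 0.12 in hippocampus. The layer 6 means lay above the hippocampal ones in prefrontal cortex and the layer 5 means lay below them. Since the split followed the values, this order adds nothing to the single genes. Of the layer 5 genes only Etv1 passed between regions in the main fits.

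**Figure D4:**
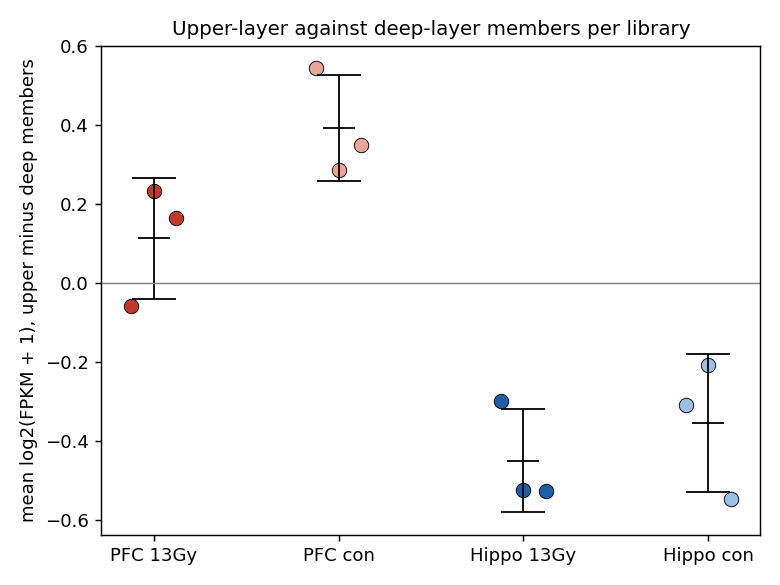
Mean log2(FPKM + 1) of the 4 upper-layer genes minus that of the 5 deep-layer genes (vertical axis) in each library, with 1 point per mouse and bars at the mean and SD of 3 mice. Both prefrontal groups lie above both hippocampal groups, and irradiated prefrontal cortex (-0.06 to 0.23) lies below control prefrontal cortex (0.29 to 0.54). No test was run on this level.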

How the data were processed

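RNA from prefrontal cortex and hippocampus of 6 mice was sequenced after a strand-specific library preparation, per the labels' protocols. The authors deposited 1 table per library, with values that fit FPKM by their scale, since the file headers do not name the unit. TopHat and build mm10 are named in the submitters' processing notes, while the counting tool, the annotation and any use of strand are not stated there. Read numbers are unknown, so no counting error can be given. Relative depth was read from 3692 genes under 0.3 FPKM. It is the inverse of the commonest ratio of their values between a library and the first library, divided by its mean over the libraries.

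The genes and the 10 further lists (other upper- and deep-layer genes, forebrain excitatory, striatal, hippocampal subfield, interneuron, thalamic, olfactory, choroid plexus, and glia and vessel genes) were chosen with earlier results of these data known. log2(FPKM + 1) of genes averaging 1 FPKM or more over the compared libraries was fitted with limma 3.58.1 (R 4.3.3, trend, two-sided), each comparison on its own 2 groups, with Benjamini-Hochberg adjustment over all genes tested and a threshold of 0.05. The procedure was tested on simulated data. All 9 genes are named in every comparison, and other genes by smallest p in their list or by closeness of profile; some genes that this rule names are not reported here. Replicates are different mice, and the same number in both regions of a treatment is the same mouse, per the titles. Deviations from group means correlated at 0.174, 0.256 and 0.300 between the regions of irradiated mice and at 0.290, -0.006 and 0.054 in control mice. Regions of different mice correlated at -0.224 to -0.036 in irradiated mice and at up to 0.1715 in control mice, control prefrontal mouse 2 with hippocampal mouse 3. The pairing of control mice 2 and 3 thus rests on the titles. Between irradiated and control mice, which are different animals, libraries of the same number correlated at 0.141, 0.120 and 0.117 in prefrontal cortex and at 0.103, -0.017 and -0.160 in hippocampus. Libraries of different numbers ran from -0.149 to 0.003 in prefrontal cortex and reached 0.239 in hippocampus. A pairing by number between treatments would rest on the data alone. The main fits used no pairing, and the replicate block was an alternative in both regions. No libraries were duplicates, the closest pair differing by 0.193 (root mean square, log2). The alternatives were a pseudocount of 0.1, no filter, equal totals, 1 fit over all 12 libraries, a replicate block (the mouse between regions, the replicate number between treatments) and leaving out each library. Figures were drawn with matplotlib 3.10.9 (Python 3.11.15).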

Additional observations from a re-analysis of the deposited data

How the results depend on the processing

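Of the 9 genes, 7 to 8 passed between regions in control mice and 7 in irradiated mice under every alternative run, and 0 passed in either irradiation comparison or in their difference. Of 529 single-gene values under alternatives, 506 kept their direction and side of the threshold, 21 changed sign and 2 (Fezf2 between regions in control mice) newly passed. With a replicate block (the mouse between regions, the replicate number between treatments) the counts of genes passing stayed at 7 in irradiated mice, 7 in control mice and 0 elsewhere, against 4629 and 4326 of all genes between regions, and the block changed no call among the 9 genes. In prefrontal cortex, irradiated against control, the block gave 0.47 ± 0.11 for Fezf2 (limma adjusted p = 0.222) and 0.23 ± 0.07 for Tbr1 (adjusted p = 0.323), with 1 of all genes passing. Between treatments that block pairs different animals by their number alone. In irradiated against control mice, equal totals gave 0.0541 for Bcl11b in hippocampus and 0.0274, 0.0451 and 0.0328 for Cux2, Lamp5 and Rorb in prefrontal cortex, and shifted the median of all genes to 0.07 in both. Leaving out 1 library gave ranges that crossed 0 for Bcl11b between regions in irradiated mice (-0.11 to 0.017), for Bcl11b (-0.12 to 0.0389) and Cux1 (-0.00509 to 0.16) in irradiated against control hippocampus, for Cux2 (-0.14 to 0.0771), Lamp5 (-0.0988 to 0.0263), Rorb (-0.11 to 0.0633) and Foxp2 (-0.0191 to 0.0880) in prefrontal cortex, and for Etv1 (-0.0937 to 0.13) and Foxp2 (-0.14 to 0.00489) in the difference of the effects. The cause was not tested. All genes passing in hippocampus numbered 0, with 4 under equal totals and up to 1 leaving out a library, and in prefrontal cortex 1, with 0 to 4 over the alternatives. In the difference of the effects they numbered 0, with up to 2. The upper minus deep level moved by less than 1 SD under every alternative. With 3 mice a group, differences within the printed intervals cannot be resolved.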

Other observations

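Genes of interneurons, the inhibitory cells that share the cortex with the layer neurons, gave values not described above. Reln, the secreted glycoprotein reelin, averaged 9.24 ± 0.346 FPKM in irradiated and 6.43 ± 0.838 FPKM in control hippocampus (SD, n = 3 each), and its libraries did not overlap (difference 0.47 ± 0.09, limma adjusted p = 0.417). Of all genes in hippocampus, 7.41% lay higher in irradiated mice without overlap. In prefrontal cortex the Reln means were 9.66 ± 1.07 FPKM (irradiated) and 9.74 ± 0.545 FPKM (control). Calb2, the calcium-binding protein calretinin, averaged 9.05 ± 3.60 FPKM in irradiated and 15.7 ± 2.76 FPKM in control prefrontal cortex (difference -0.78 ± 0.23, limma adjusted p = 0.475). Vip, a neuropeptide of another interneuron class, averaged 25.1 ± 0.762 FPKM in irradiated and 21.1 ± 1.11 FPKM in control prefrontal cortex (difference 0.24 ± 0.07, limma adjusted p = 0.479). Of the 14 interneuron genes, 0 passed in either irradiation comparison, and 2 had an unadjusted limma p under 0.05 in prefrontal cortex and 1 in hippocampus. Among all genes these shares were 7.23% in prefrontal cortex and 10.5% in hippocampus, so the counts are near those of all genes.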
